A study of Mus musculus with 4 samples.

Results

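Transcripts of 7 genes of the mouse RAS-RAF-MEK-ERK cascade were measured in libraries labelled as the mouse lung epithelial cell line MLE-12 after exposure to 1-nitropyrene, a nitro-aromatic pollutant of diesel soot. The 7 genes are the RAS GTPases Hras and Nras, the kinase Braf, the MEK kinases Map2k1 and Map2k2, the ERK kinase Mapk3 and the ERK phosphatase Dusp6, out of 53465 gene identifiers in the deposited count table. They were chosen by name as steps of one pathway, and were picked from genes whose response to 1-nitropyrene in these libraries was already known. Their levels and changes are therefore given as a description, without p-values. Other RAS, RAF and ERK genes of the core cascade were not analysed here.

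Cells of the treated group were kept with 5 µM 1-nitropyrene for 12 h (n = 2 libraries, replicates 2 and 3), and cells of the control group were kept without it (n = 2 libraries, replicates 1 and 2). The study was set up to follow translation of Fbxw7, a ubiquitin ligase gene, under 1-nitropyrene. All 4 libraries were made from polyadenylated RNA with a stranded kit and came from 1 line. The labels did not say whether replicates were separate cultures, so the spread between them may be technical. The libraries held 8797502 and 8601825 counts with 1-nitropyrene, against 10773733 and 6908055 in control. Ribosomal RNA loci took 44.3% to 44.5% of counts with 1-nitropyrene and 45.8% to 46.1% in control. Of 9 markers of lung epithelium and alveolar type 2 cells, 8 had a count of 0 in all libraries, among them Cdh1, Krt8, Krt18, Sftpb and Nkx2-1, and the list held 1 count in total. Genes that nearly every cell uses were also listed at 0 in all libraries, among them Pebp1 and Map2k7, so a 0 in this table may not mean that the RNA was absent, and the labelled cell type could not be checked with these markers.

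RAS proteins are membrane-bound switches that turn on when growth factor receptors load them with GTP. Active RAS recruits RAF kinases such as Braf, RAF phosphorylates the MEK kinases Map2k1 and Map2k2, and MEK phosphorylates ERK kinases such as Mapk3 (ERK1), which enter the nucleus and drive growth-related transcription. Dusp6 is a cytoplasmic phosphatase that takes these phosphates off ERK, and its own transcript is induced by ERK signalling. The signal itself travels by phosphorylation, which RNA counts do not measure.

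MEK and Dusp6 act on the same threonine and tyrosine of Mapk3. The coding sequence around these residues is shown because the 3 members whose transcripts changed, Map2k1, Mapk3 and Dusp6, meet at this site. It was read from the GENCODE M21 transcript with the longest coding sequence, lies in exon 4 on the plus strand of chromosome 7 (GRCm38, chr7:126763437-126763487), and capitals mark the Thr-Glu-Tyr codons.
Mapk3 activation segment: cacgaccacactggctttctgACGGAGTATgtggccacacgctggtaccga

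Mapk3 RNA fell to 49.9% of its control level with 1-nitropyrene, while RNA for Map2k1, which lies directly above it, and for Dusp6, which switches it off, rose. Of the 7 members, 3 passed an adjusted p under 0.05 in the edgeR fit over 7738 genes (2 higher, 1 lower). The same fit called 24.5% of all tested genes, 13.2% higher and 11.2% lower. Since the members were picked with this contrast known, nothing is read from their count. The median log2 fold change was 0.05 over the 7 members and -0.00347 over all tested genes. Levels in the next paragraphs are CPM, counts scaled to library depth and TMM factors.

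Mapk3 encodes ERK1, which carries the signal into the nucleus. It had 17.4 and 16.8 CPM in 1-nitropyrene replicates 2 and 3, against 35.7 and 32.2 CPM in control replicates 1 and 2. Both treated libraries lay far below both controls, and the gap between the groups was larger than the gap within them, which was 0.05 on the log2 scale with 1-nitropyrene and 0.15 in control. Means were 17.1 ± 0.397 CPM with 1-nitropyrene and 34.0 ± 2.43 CPM in control (SD, n = 2 each). The log2 fold change was -1.004 (SE 0.12), which leaves 49.9% of the control level with a 95% interval of the ratio from 0.421 to 0.590. A steeper fall was seen in 146 of the 7738 tested genes. The raw counts behind these levels were 151 and 143 with 1-nitropyrene and 388 and 225 in control. The call was kept in all 15 alternative settings, with log2 fold changes between -1.06 and -0.92.

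Bulk RNA cannot tell fewer cells of a type apart from less RNA per cell. Beside the fall of Mapk3, 5 fibroblast markers (Col1a1, Col1a2, Col3a1, Pdgfra and Thy1, the last at 0) had few counts. They summed to 9 and 9 counts with 1-nitropyrene and to 62 and 23 in control. In CPM of total counts these sums were 1.02 and 1.05 with 1-nitropyrene and 5.75 and 3.33 in control. Pdgfra had 7 and 6 of the treated counts and was not called (log2 fold change -1.18, SE 0.57). The macrophage and leukocyte list (4 genes) held 3 counts in all libraries together and the endothelial list (3 genes) held 4. The part of other cell types in the result was not tested.

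**Figure D1:**
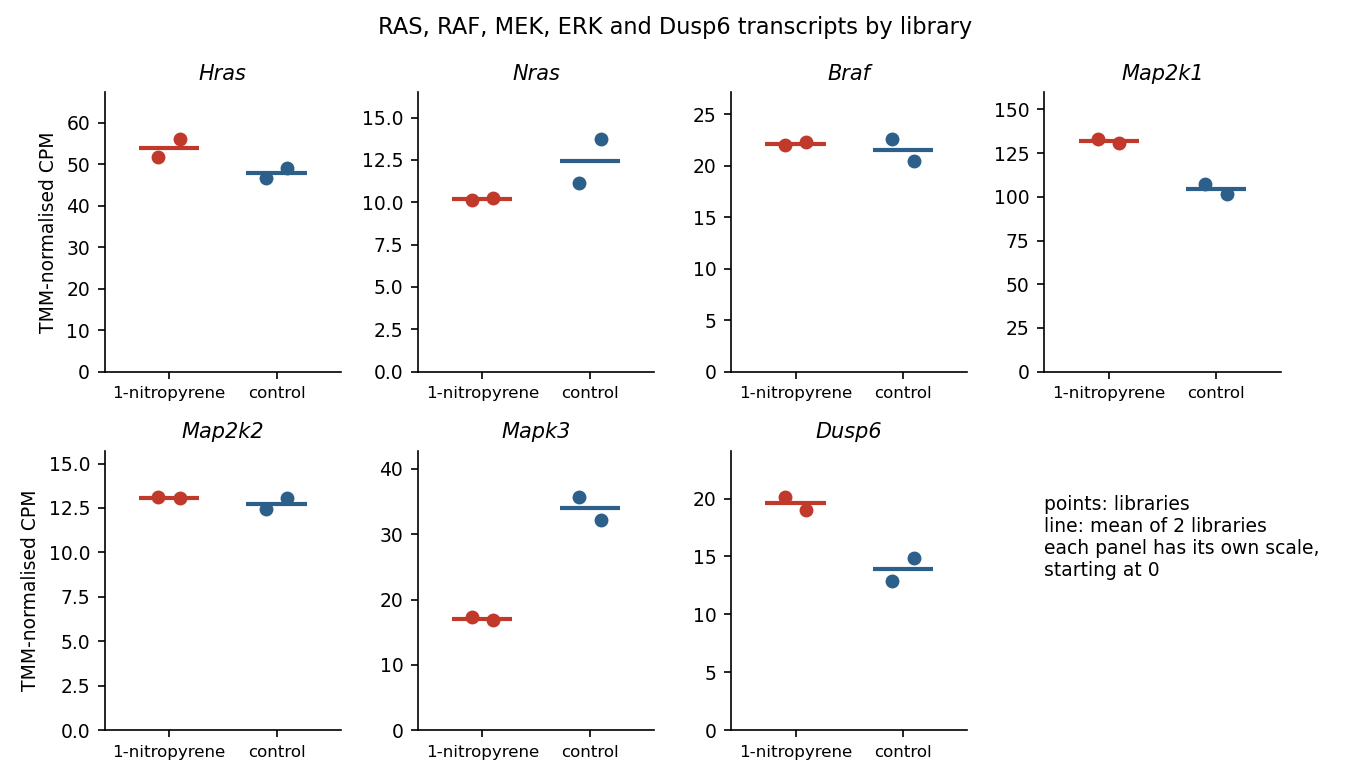
TMM-normalised CPM of the 7 members, 1 panel per gene with its own axis from 0; points are libraries and lines are means of 2. Mapk3 lies at 16.8 and 17.4 CPM with 1-nitropyrene and at 32.2 and 35.7 CPM in control, and Map2k1 and Dusp6 lie higher in both treated libraries.

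Of the MEK kinases, Map2k1 (MEK1) rose and Map2k2 (MEK2) was not called. Map2k1 had 133 and 131 CPM with 1-nitropyrene, against 108 and 101 CPM in control. Both treated libraries were above both controls. The log2 fold change was 0.33 (SE 0.06), a ratio of 1.26 with a 95% interval of 1.16 to 1.36, and it stayed between 0.29 and 0.38 with the call kept in all 15 settings. Map2k2 had 13.11 and 13.05 CPM in the treated libraries and 12.42 and 13.04 CPM in the controls. The upper control and the lower treated library were almost equal. Its ratio was 1.03 with an interval of 0.818 to 1.30.

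Dusp6 RNA was at 20.1 and 19.0 CPM with 1-nitropyrene, against 12.9 and 14.9 CPM in control. The groups did not overlap, although the controls differed from each other by 0.21 on the log2 scale. The log2 fold change was 0.52 (SE 0.15), a ratio of 1.43 with an interval of 1.16 to 1.76. This call was less firm than those of Mapk3 and Map2k1. It was lost in DESeq2 (0.50), without control replicate 1 (0.39) and without 1-nitropyrene replicate 2 (0.48), and DESeq2 called 10.8% of the tested genes.

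The RAS GTPases and Braf were not called. Hras, the more abundant of the pair, had 51.6 and 56.2 CPM with 1-nitropyrene and 46.7 and 49.2 CPM in control. Both treated values were above both controls, by a ratio of 1.13 (interval 1.00 to 1.27). Nras had 10.1 and 10.2 CPM in the treated libraries, against 11.1 and 13.8 CPM in the controls. It lay below both controls, which themselves differed by 0.31 on the log2 scale, more than the fitted log2 fold change of -0.26 (SE 0.18). Braf, the RAF kinase with the strongest activity towards MEK, had 22.0 and 22.3 CPM with 1-nitropyrene, between the 22.6 and 20.5 CPM of the controls. Its ratio was 1.02 with an interval of 0.852 to 1.21, so a change of up to about these bounds was not detectable at this depth. Braf shares 146 bp of exon with the opposite-strand gene Ndufb2, whose reads could be counted in it. In all, 6 of the 7 members had groups that did not overlap, which 59.2% of all tested genes also showed.

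**Figure D2:**
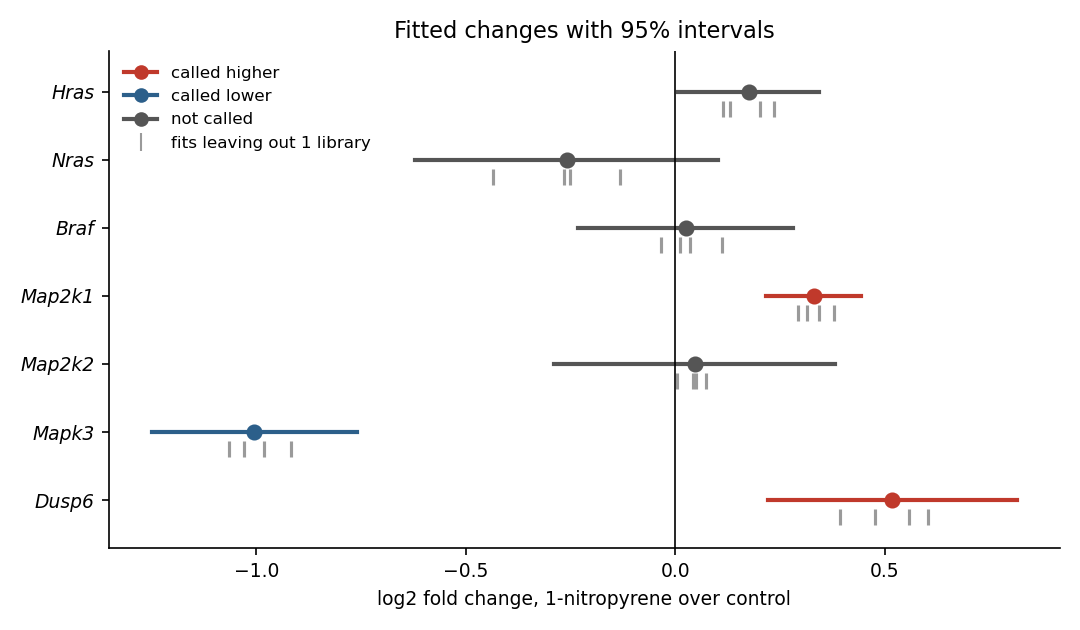
Log2 fold change of 1-nitropyrene over control for each member (points) with 95% intervals (lines) and the 4 values obtained by leaving out 1 library each (grey ticks). Mapk3 lies at -1.004, Map2k1 at 0.33 and Dusp6 at 0.52, and the intervals of Nras, Braf and Map2k2 cross 0.

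To compare the members with each other, counts were divided by the length of their merged exons. They were then scaled to the same sum in every library (TPM, over all genes with an annotated length). Ribosomal RNA loci were kept in that sum, so the values are lower than TPM over messenger RNA alone. On this scale Map2k1 was the most abundant member in every library, with 81.1 and 80.8 TPM with 1-nitropyrene and 67.7 and 64.6 TPM in control. The order below it differed between the groups. With 1-nitropyrene, Hras (28.6 and 31.6) stood above Mapk3 (15.9 and 15.6). In control, Mapk3 (33.8 and 30.8) stood above Hras (26.7 and 28.4). Dusp6 came next in every library, at 13.3 and 12.8 with 1-nitropyrene and 8.78 and 10.3 in control. Map2k2 had 4.78 and 4.83 with 1-nitropyrene and 4.68 and 4.97 in control, Nras 3.92 and 4.02 with 1-nitropyrene and 4.46 and 5.57 in control. Map2k2 and Nras overlapped in control and did not in the treated libraries. Braf was lowest in all 4 libraries, at 3.27 and 3.38 with 1-nitropyrene and 3.49 and 3.19 in control. By its mean over the libraries Map2k1 lay above 89.3% of the tested genes and Braf above 29.98%. Exons that these cells do not use lower a value on this scale, and the merged exons of Braf span 13862 bp.

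**Figure D3:**
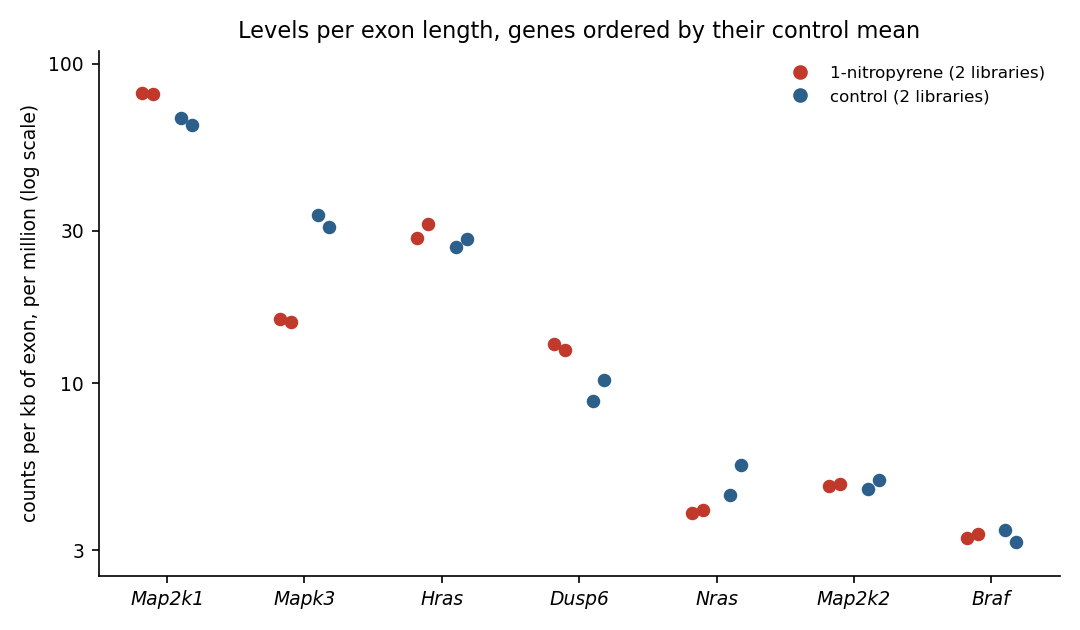
Level per length of merged exon (TPM) on a log axis, with 1-nitropyrene libraries left of control libraries for each member. Hras lies above Mapk3 in both treated libraries, and Mapk3 above Hras in both controls.

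Ratios of one member to another inside a library do not depend on the scaling between libraries. Per length, Mapk3 stood at 0.196 and 0.193 of Map2k1 with 1-nitropyrene, against 0.499 and 0.477 in control. The treated libraries were nearly equal and the groups lay far apart. Mapk3 stood at 1.197 and 1.225 times Dusp6 with 1-nitropyrene, against 3.846 and 3.002 times in control. Within the paralogue pairs the balance shifted little. Map2k1 made up 94.4% and 94.4% of the MEK pair with 1-nitropyrene and 93.5% and 92.9% in control. Hras made up 87.9% and 88.7% of Hras plus Nras with 1-nitropyrene and 85.7% and 83.6% in control.

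Reads could be shared between members or with other genes to a small extent only, as judged by sequence. Of the 50-base words in the annotated transcripts of Mapk3, 0.0428% also occur in a transcript of another gene (Gm15546). Map2k1 and Map2k2 share 7 such words (0.207% and 0.122% of their own), and Hras and Dusp6 share none with any other gene. For Nras the share was 0.733%, spread over 162 genes, and for Braf 0.692%, all with Ndufb2. How reads with several matches were counted is not stated in the sources used.

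Sequences before the start site were available from RefSeq (GRCm38.p6) for 6 of the 7 members, all except Mapk3. Those of Map2k1 and Dusp6 are shown, as the members whose RNA rose. The 250 bases before the RefSeq start of Map2k1 are on the minus strand of chromosome 9 (chr9:64253606-64253855). Those of Dusp6 are on the plus strand of chromosome 10 (chr10:99262981-99263230). In GENCODE, Map2k1 starts further upstream, at 64253631. The last bases of its window, with the GC box nearest the start, therefore lie inside the annotated gene. Capitals mark matches on either strand to the GC box GGGCGG and to the CCAAT box CCAAT, which do not overlap each other here.
Map2k1: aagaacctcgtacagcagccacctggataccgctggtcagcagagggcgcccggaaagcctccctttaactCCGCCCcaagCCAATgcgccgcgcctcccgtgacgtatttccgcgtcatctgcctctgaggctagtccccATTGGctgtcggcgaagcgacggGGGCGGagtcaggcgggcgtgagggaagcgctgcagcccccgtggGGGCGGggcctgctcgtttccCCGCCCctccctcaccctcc
Dusp6: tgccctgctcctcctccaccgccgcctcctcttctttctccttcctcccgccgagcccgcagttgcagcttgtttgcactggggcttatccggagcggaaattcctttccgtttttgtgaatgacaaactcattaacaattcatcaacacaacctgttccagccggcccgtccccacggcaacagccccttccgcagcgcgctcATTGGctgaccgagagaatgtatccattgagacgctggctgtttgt

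The window of Map2k1 held 4 GC boxes and 2 CCAAT boxes and that of Dusp6 1 CCAAT box and no GC box. Over 32851 windows of the same length, 32.7% held a GC box and 33.8% a CCAAT box. A GC box was also present for Hras (3 matches), Nras (2), Braf (1) and Map2k2 (1), and a CCAAT box for Hras (1 match). Matches were sought on both strands for the ETS motif CCGGAAGT (in 2.88% of all windows), the cAMP response element TGACGTCA (1.55%), the AP-1 motif TGANTCA (6.75%), the EGR1 motif GCGTGGGCG (0.536%), the E-box CACGTG (6.02%), TATAAA (12.4%) and the NRF1 motif (0.782%). In the AP-1 pattern N is any base, so its 6.75% also counts TGAATCA and TGATTCA, which lie outside the strict site. Of all these motifs, Braf held 2 cAMP response elements, Nras 1 E-box and Map2k2 1 NRF1 motif. These letters were not found elsewhere in the 6 windows. The GC content was 68.4% for Map2k1 and 56.4% for Dusp6, against a median of 52.4% over all windows.

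Mapk3 lies on chromosome 7 (GRCm38, 126759601 to 126765819, plus strand). Of 7 tested genes whose bodies lie within 100 kb of it, edgeR called 5 higher and 1 lower, beside 13.2% and 11.2% of all tested genes. Of the 5 higher calls, those of Ppp4c and Aldoa were kept in all 15 settings. The lower one was Ypel3, a gene of the Yippee-like family, which begins 17.4 kb after the start of Mapk3. Ypel3 was at 8.79 ± 1.53 CPM with 1-nitropyrene and 17.7 ± 3.73 CPM in control, with a fitted change of -1.05 in log2 (SE 0.17) and an edgeR adjusted p = 2.7e-08. It stood at -0.78 without control replicate 1, with the call kept. The phosphatase subunit gene Ppp4c, 32.9 kb away, rose to 204 ± 3.77 CPM with 1-nitropyrene, against 173 ± 2.75 CPM in control (0.24, SE 0.05, adjusted p = 7.11e-06), and the glycolytic enzyme gene Aldoa, 41.2 kb away, rose by 0.22 (SE 0.03). The rises of Sgf29 (0.42, SE 0.13), Bola2 (0.51, SE 0.17) and Taok2 (0.13, SE 0.05) were not called by DESeq2 (0.41, 0.48 and 0.12 in the same order), and each lost its call when 1 library was left out: Sgf29 without control replicate 1 (0.39) or 1-nitropyrene replicate 2 (0.33), Bola2 without control replicate 1 (0.33), 1-nitropyrene replicate 2 (0.49) or 1-nitropyrene replicate 3 (0.52), and Taok2 without control replicate 1 (0.06) or 1-nitropyrene replicate 3 (0.07). Taok2 was also not called with upper quartile scaling (0.12), without scaling factors (0.10), without a filter on low counts (0.14) or in limma-voom (0.14), nor Bola2 without that filter (0.51). Opposite-strand genes cover 386 bp of the exons of Bola2, 230 bp of Sgf29 and 25 bp of Aldoa. Around Map2k1, none of 4 tested neighbours was called, and Dusp6 had no tested neighbour.

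**Figure D4:**
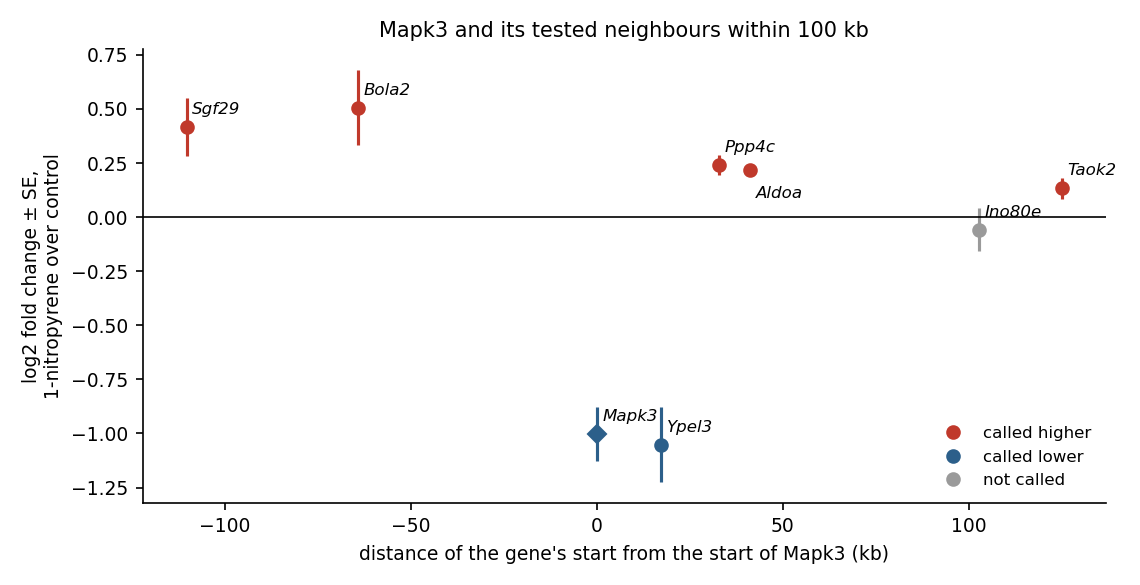
Log2 fold change ± SE of Mapk3 (diamond) and of its 7 tested neighbours against the distance between gene starts in kb. Mapk3 at -1.004 and Ypel3 at -1.05 lie far below the other 6 genes, which range from -0.06 to 0.51.

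Over the 4 libraries, the genes whose CPM profile was most like that of Mapk3 were Tmem151b, Cdr2l and Col4a5, among the 4254 protein-coding genes compared, which averaged 10 CPM or more. Their distances on the centred log2 scale were 0.18, 0.19 and 0.22. Opposite-strand genes cover 729 bp of the exons of Tmem151b, 641 bp of Lurap1, 327 bp of Elf1 and 70 bp of Sf1. The profiles nearest to Map2k1 were those of Mcts2, Acly and Sf1 (distances of 0.02, 0.03 and 0.03), and those nearest to Dusp6 were of Lurap1, Elf1 and Ap1m1 (0.06 each). With 4 libraries in 2 groups, these distances reflect mostly a like fold change.

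The rest of the pathway was examined through 12 lists of 163 genes, from receptors to ERK-dependent transcripts, of which 106 were measured well enough to test. In edgeR 13 of the 106 were higher and 33 lower with 1-nitropyrene (43.4% called), beside 24.5% of all 7738 tested genes. DESeq2 called 8 higher and 11 lower. The lists were chosen with earlier results of these data known, so nothing is read from these shares or from the calls per list below. The median log2 fold change was -0.08 over these genes and -0.00347 over all. No test compared the lists with other genes. Reads of an opposite-strand gene could be counted in some of the genes named below, whose exons it overlaps: by 3962 bp in Rap2b, 813 bp in Pdgfa, 401 bp in Golga7, 347 bp in Dab2ip and 316 bp in Elk3, and by 11 to 260 bp in Mknk1, Junb, Fgfr1, Iqgap1, Pea15a, Ddr2, Mapk7 and Dusp1. Of the 42 called genes described below, 20 kept their call whichever library was left out, and DESeq2 kept 19. Those 19 were Axl, Ddr2, Rras2, Pde6d, Iqgap1, Map3k7, Map2k4, Mapk7, Dusp7, Dusp16, Spry3, Ets1, Mknk1, Rps6ka2, Rps6ka3, Egr1, Junb, Klf4 and Fosl2. The others were not called by DESeq2, also where this is not repeated below, or had no adjusted p there (Rras and Spry4). In the next paragraphs, levels are mean CPM ± SD (n = 2 in each group) and values in brackets are log2 fold changes. Where adjusted p-values are printed, they are from the same edgeR fit over all 7738 genes. They describe single genes. As the lists were chosen with results known, they are not support for a response of the pathway.

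**Figure D5:**
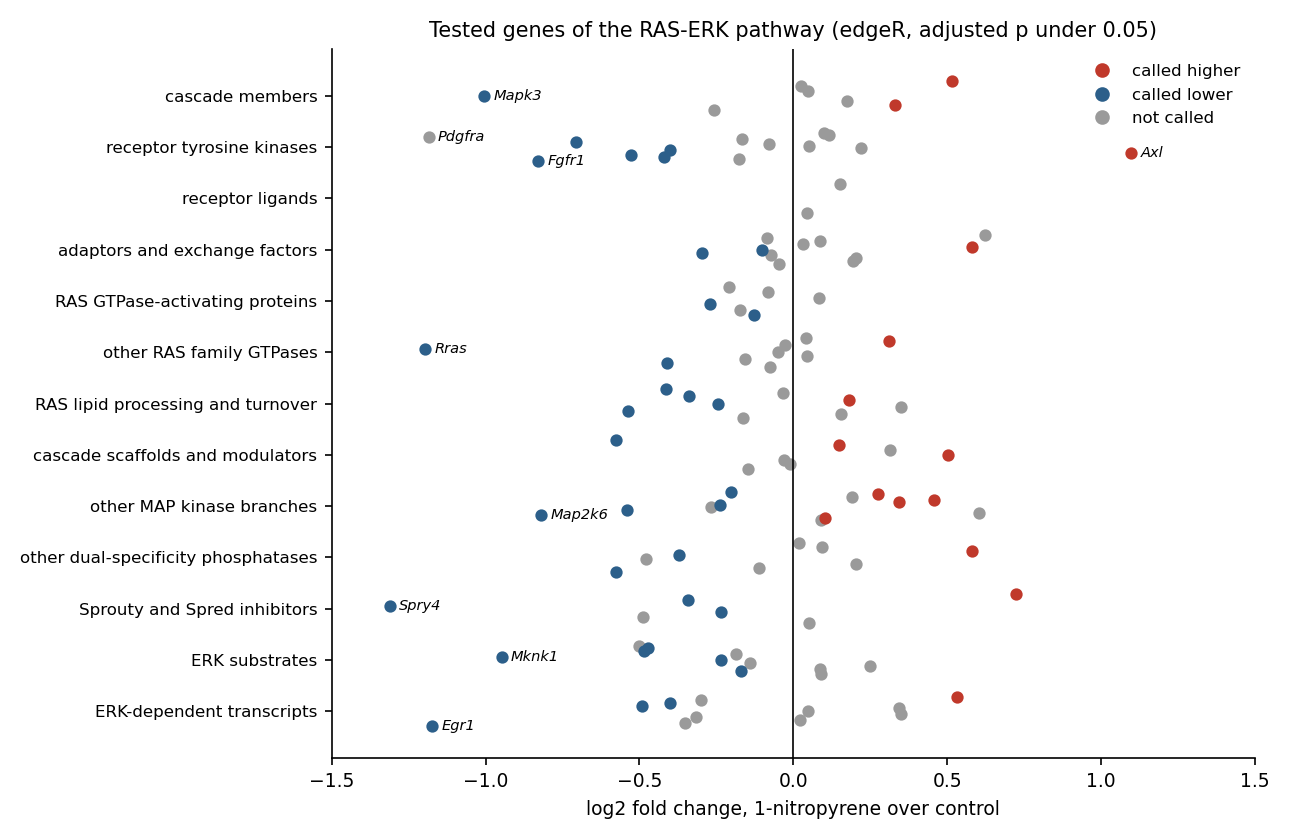
Log2 fold change of 1-nitropyrene over control for the members (top) and the tested genes of the 12 pathway lists, 1 point per gene, coloured by call. In the lists edgeR called 33 genes lower and 13 higher, beside 870 lower and 1024 higher of all tested genes. DESeq2 called 11 list genes lower and 8 higher. Spry4, Rras, Egr1, Mapk3 and Mknk1 are furthest to the left among called genes. The call of Spry4 was lost whichever library was left out.

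Among receptor tyrosine kinases, which start the cascade, 5 of 14 tested genes fell and 1 rose, 42.9% called beside 24.5% of all genes. The receptor Axl rose to 71.3 ± 0.474 CPM with 1-nitropyrene, against 33.3 ± 0.133 CPM in control (log2 fold change 1.10, SE 0.09). The collagen receptor Ddr2 fell to 89.7 ± 2.91 CPM, against 118 ± 5.28 CPM in control (-0.40, SE 0.06, adjusted p = 2.19e-09), and the fibroblast growth factor receptor Fgfr2 to 8.37 ± 0.457 CPM, against 13.7 ± 0.103 CPM (-0.71, SE 0.19, adjusted p = 0.00143), a call DESeq2 did not make. Fgfr1 fell by 0.83 (SE 0.22), a call lost without 1-nitropyrene replicate 2 (-0.65). The hepatocyte growth factor receptor Met fell by 0.42 (SE 0.12), a call lost without control replicate 1 (-0.39) or 1-nitropyrene replicate 3 (-0.29). Of 17 ligand genes 11 were listed at 0 in every library and 2 were tested, with neither called. The platelet-derived growth factor gene Pdgfa was at 85.7 ± 5.68 CPM with 1-nitropyrene and 83.8 ± 5.40 CPM in control.

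Adaptors and exchange factors link receptors to RAS, and 1 of 11 tested rose and 2 fell, 27.3% called beside 24.5% of all genes. Grb2, which brings the exchange factor Sos1 to receptors, fell to 48.3 ± 0.736 CPM with 1-nitropyrene, against 59.9 ± 4.53 CPM in control (-0.30, SE 0.08, adjusted p = 0.0028), a call lost without control replicate 2 (-0.23). Crk fell by 0.10 (SE 0.03), which was not called without control replicate 1 (-0.08) or 1-nitropyrene replicate 2 (-0.07). Gab2 rose by 0.58 (SE 0.21), but leaving out any 1 of the 4 libraries ended the call, at values between 0.53 and 0.65.

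GTPase-activating proteins switch RAS off, and 2 of the 6 examined fell while none rose, 33.3% called beside 24.5% of all genes. Dab2ip fell to 66.7 ± 0.525 CPM with 1-nitropyrene, against 80.5 ± 0.686 CPM in control (-0.27, SE 0.07, adjusted p = 0.00139) and was not called by DESeq2. Neurofibromin (Nf1) fell by 0.13 (SE 0.05, adjusted p = 0.0278), and each omission of 1 library ended that call, at values between -0.14 and -0.11.

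Of 9 tested relatives of the RAS GTPases 1 rose and 2 fell, 33.3% called beside 24.5% of all genes. Rras2 rose to 125 ± 3.05 CPM with 1-nitropyrene, against 100.2 ± 2.90 CPM in control (0.31, SE 0.06, adjusted p = 2.64e-06). Rras fell to 3.48 ± 1.59 CPM, against 8.09 ± 0.516 CPM in control (-1.20, SE 0.27, adjusted p = 9.35e-05), a call lost without 1-nitropyrene replicate 3 (-0.80), the lower of the treated libraries. Rap2b fell by 0.41 (SE 0.10), lost without control replicate 1 (-0.22) or 1-nitropyrene replicate 2 (-0.20).

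RAS proteins need lipid anchors and carriers to reach membranes. Of 9 tested genes of this step 4 fell and 1 rose, 55.6% called beside 24.5% of all genes. Pde6d, the carrier of farnesylated RAS, fell to 46.9 ± 2.00 CPM with 1-nitropyrene, against 59.2 ± 1.16 CPM in control (-0.34, SE 0.08, adjusted p = 0.00057). The farnesyltransferase subunit gene Fnta fell by 0.54 (SE 0.18), lost without control replicate 2 (-0.42) or 1-nitropyrene replicate 3 (-0.30). Lypla2, which removes palmitate, fell by 0.25 (SE 0.07), lost without 1-nitropyrene replicate 3 (-0.16). Lztr1, a ubiquitin ligase adaptor for RAS, fell by 0.41 (SE 0.14), lost without control replicate 1 (-0.43), control replicate 2 (-0.40) or 1-nitropyrene replicate 2 (-0.35). Golga7, part of a RAS palmitoyltransferase, rose by 0.18 (SE 0.06), lost without control replicate 2 (0.13) or 1-nitropyrene replicate 2 (0.16).

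Scaffolds and modulators of the cascade moved both ways, with 2 of 7 tested higher and 1 lower, 42.9% called beside 24.5% of all genes. The scaffold Iqgap1 rose to 67.0 ± 2.502 CPM with 1-nitropyrene, against 46.4 ± 6.27 CPM in control (0.50, SE 0.08, adjusted p = 1.73e-08). The ERK-binding protein gene Pea15a rose by 0.15 (SE 0.05), lost without control replicate 2 (0.10) or 1-nitropyrene replicate 2 (0.05). It was also not called with upper quartile scaling (0.13), with no scaling factors (0.12) or in limma-voom (0.14). The scaffold Cnksr2 fell by 0.58 (SE 0.15), lost without 1-nitropyrene replicate 3 (-0.36).

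In the other MAP kinase branches 4 of 12 tested genes rose and 4 fell, 66.7% called beside 24.5% of all genes. The kinase Map3k7, which acts above JNK and p38, rose to 140 ± 4.68 CPM with 1-nitropyrene, against 112 ± 12.0 CPM in control (0.34, SE 0.06, adjusted p = 3.4e-08). Mapk7 (ERK5) rose to 42.2 ± 0.0137 CPM, against 30.7 ± 0.202 CPM in control (0.46, SE 0.10, adjusted p = 7.87e-05). Mapk8 (JNK1) rose by 0.27 (SE 0.08), lost without control replicate 1 (0.27). Map2k4, a kinase of JNK, fell to 153 ± 6.04 CPM with 1-nitropyrene, against 181 ± 5.78 CPM in control (-0.24, SE 0.05, adjusted p = 2.62e-05). Map2k6, a kinase of p38, fell by 0.82 (SE 0.22), lost without 1-nitropyrene replicate 3 (-0.66).

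Dual-specificity phosphatases other than Dusp6, and the Sprouty and Spred inhibitors, were examined in 2 lists. Of 8 tested dual-specificity phosphatases 1 rose and 2 fell, 37.5% called beside 24.5% of all genes. Dusp16, which acts on JNK and p38, rose to 40.9 ± 4.23 CPM with 1-nitropyrene, against 27.2 ± 1.19 CPM in control (0.58, SE 0.11, adjusted p = 6.79e-07). Dusp7, like Dusp6 a cytoplasmic phosphatase of ERK, fell to 78.0 ± 4.07 CPM, against 101 ± 1.92 CPM in control (-0.37, SE 0.07, adjusted p = 3.9e-07). Dusp1, a nuclear phosphatase, fell by 0.58 (SE 0.16), lost without control replicate 1 (-0.30). Of 6 tested Sprouty and Spred genes 3 fell and 1 rose, 66.7% called beside 24.5% of all genes. Spry3 rose to 16.1 ± 1.81 CPM, against 9.67 ± 0.502 CPM in control (0.72, SE 0.17, adjusted p = 0.000302). Spred1 fell by 0.24 (SE 0.06), lost without control replicate 2 (-0.20). Spry2 fell by 0.34 (SE 0.11), lost without control replicate 2 (-0.30) or 1-nitropyrene replicate 3 (-0.30). Spry4, at 0.870 ± 0.233 CPM with 1-nitropyrene and 2.15 ± 0.207 CPM in control, fell by 1.31 (SE 0.52), a call that ended when any 1 of the 4 libraries was left out (-1.61 to -1.07).

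Below ERK, 5 of 11 tested genes of ERK substrates fell and none rose, 45.5% called beside 24.5% of all genes. The transcription factor Ets1 fell to 96.7 ± 5.27 CPM with 1-nitropyrene, against 133 ± 10.4 CPM in control (-0.47, SE 0.06, adjusted p = 6.01e-14). Mknk1, which phosphorylates the cap-binding factor eIF4E, fell to 7.90 ± 0.701 CPM, against 15.5 ± 1.78 CPM in control (-0.95, SE 0.19, adjusted p = 5.41e-06). Of the RSK kinases, Rps6ka3 fell by 0.24 (SE 0.05) and Rps6ka2 by 0.49 (SE 0.10), the second not called without control replicate 1 (-0.28). The transcription factor Elk3 fell by 0.17 (SE 0.05), lost without control replicate 2 (-0.16) or 1-nitropyrene replicate 3 (-0.12).

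Of 11 tested transcripts that ERK signalling is known to induce, 3 fell and 1 rose, 36.4% called beside 24.5% of all genes. The rest, most of the list, were not called. Dusp6, a member of the same class, rose. Egr1 fell to 94.0 ± 5.63 CPM with 1-nitropyrene, against 211 ± 6.21 CPM in control (-1.17, SE 0.05). Junb fell by 0.49 (SE 0.06, adjusted p = 1.27e-13) and Klf4 to 135 ± 10.0 CPM, against 178 ± 1.11 CPM in control (-0.40, SE 0.05, adjusted p = 3.94e-13). Fosl2 rose to 33.0 ± 4.203 CPM, against 22.4 ± 3.08 CPM in control (0.53, SE 0.12, adjusted p = 6.67e-05). These 4 calls were kept in all 15 settings. Fos, Ier2, Ier3, Myc and Epha4 had too few counts to be tested, with 0 to 3 counts each over the 4 libraries.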

How the data were processed

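Counts per gene were deposited by the authors as 1 table of raw counts, and were not normalized. Per the submitters' processing notes, the tools were featureCounts 1.6.3, HISAT2 2.1.0 and DESeq2 and the builds GRCm38 and mm10, with no roles named. No source used here gives the strand setting or annotation release, so reads of opposite-strand partners may be counted in a gene. Of 53465 identifiers 53360 matched GENCODE M21. Totals ranged from 6908055 to 10773733 counts per library, where a floor of 3 counts is 0.278 to 0.434 CPM. This floor covers counting error only.

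The counts were filtered with filterByExpr (7738 genes, all 7 members included), scaled by TMM and fitted in edgeR 4.0.16 (R 4.3.3) with the quasi-likelihood method of edgeR 4 and treatment as the only term. All genes shared 1 spread (biological coefficient of variation 2.34%), so standard errors and 95% intervals took no account of a gene's own replicate gap. Calls are at a Benjamini-Hochberg adjusted p under 0.05, two-sided. Replicates differed by more than sampling noise (chi-square per degree of freedom 2.05 with 1-nitropyrene and 1.62 in control). Alternatives included DESeq2 1.42.0 and limma 3.58.1. Per-length levels use merged exons. Members and lists were chosen with earlier results of these data known. From each list, up to 5 called genes of at least 1 CPM with the smallest p are named, or the most abundant tested gene where none was called. Some genes of the pathway are not reported here and were left out of the lists and the profile comparison.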

Additional observations from a re-analysis of the deposited data

How the results depend on the processing

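No paired analysis was possible because the groups share only replicate number 2. Of 15 alternatives, all kept the calls of Mapk3 and Map2k1, and Hras, Nras and Map2k2 kept their direction and stayed uncalled. Leaving out 1 library gave ranges of -1.06 to -0.92 for Mapk3, 0.29 to 0.38 for Map2k1, 0.39 to 0.60 for Dusp6, 0.11 to 0.24 for Hras, -0.44 to -0.13 for Nras, 0.00303 to 0.07 for Map2k2 and -0.03 to 0.11 for Braf. Braf changed sign without scaling factors (-0.00559) and without control replicate 2 (-0.0337), both values close to 0. Dusp6 was not called by DESeq2 (0.50). Spry4 had no value at 1 CPM or more in every library, and DESeq2 gave no adjusted p for Spry4 and Rras. DESeq2 called 517 genes higher and 319 lower, against 1024 and 870 in edgeR, and 8 and 11 pathway genes, against 13 and 33. The lower calls numbered 532 without a filter on low counts and 568 at an adjusted p under 0.01. Leaving out 1 library gave 690 to 861 higher and 511 (without control replicate 1) to 647 lower calls over all genes, and 9 to 15 higher and 22 to 27 lower among pathway genes. Without scaling factors the split of all calls was 868 higher and 1017 lower. Of the 42 named pathway genes that were called, 18 kept the call in all 15 settings. With 2 libraries per group and between 87 and 175 counts per library for Nras, Map2k2 and Dusp6, changes smaller than their intervals were not detectable. The cause of these differences was not tested.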
